A study of Mus musculus with 3 samples.

Results

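Proteasome subunit genes were examined for binding of the zinc finger protein ZFP410 in mouse brown preadipocytes. The members were 42 genes chosen by name, with earlier results of these data known. They covered the subunits of the 20S core and the ATPase and non-ATPase subunits of the 19S cap with its assembly chaperones. The immunoproteasome subunits and the proteasome activators were also included. All 42 were found among the 21887 protein-coding genes on placed chromosomes in the gene table (GRCm38.p6, the coordinates of mm10). The 3 CUT&Tag libraries, each the only one of its group, came from Lin-CD29+CD34+Sca1+ cells sorted from brown fat of male wild-type C57BL/6 mice, with no age or number of animals given. In CUT&Tag an antibody brings a DNA-cutting transposase to the sites that its target occupies. A Proteintech antibody to ZFP410 was used on untreated cells and on cells given brown adipocyte differentiation medium for 3 days (induced cells), and control IgG on untreated cells alone. Peaks of a DNA-binding protein do not report expression, so the cell type in the labels could not be checked against marker genes.

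The proteasome degrades proteins that carry a ubiquitin tag. Its core is a barrel of stacked rings, in which alpha subunits form the gate and beta subunits line the chamber and carry the proteolytic sites. The 19S cap sits on the barrel: a ring of ATPases unfolds the substrate, and the other subunits of base and lid bind and remove ubiquitin. Immunoproteasome subunits replace the catalytic beta subunits in immune cells or after interferon, and activators such as PA28 (Psme1, Psme2) open the barrel without ubiquitin. Brown fat is known to raise proteasome activity in the cold through the factor NFE2L1. ZFP410 is best known for binding clustered motifs at Chd4, the ATPase gene of the NuRD complex.

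Of the 42 genes, 13 had a ZFP410 peak with its summit within 1 kb of either end of the gene (a gene-end peak) in the induced library, 3 had one in the untreated library, and 0 had one with IgG. Over all coding genes the same call was made for 8.43% in the induced, 3.73% in the untreated and 0.0366% in the IgG list, against 31.0%, 7.14% and 0% of the proteasome genes. Psma2 and Psmd1 were called in both ZFP410 lists, 4.76% of the members, where 2.40% of coding genes were. In the induced list alone 11 members were called (26.2%, against 6.03% of coding genes). Psme3 was the only member called in the untreated list alone (2.38%, against 1.32%). With 1 library per group no difference between groups has a replicate check, and no test was made. A summit is described here by its number of overlapping fragments, which was recovered from the authors' fold and p-value for each peak.

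Judged from the background values of the peak caller, depth was 2.01 times as high after induction as before it, and the genome-wide background 2.24 times as high (0.246 against 0.110 fragments). The IgG background was 0.0231 fragments, so that library was far shallower than either. There were 7475 induced, 3256 untreated and 480 IgG peaks, and the weakest of each list held 4, 3 and 2 fragments. Equal sites thus passed the caller's threshold more easily after induction.

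**Figure D1:**
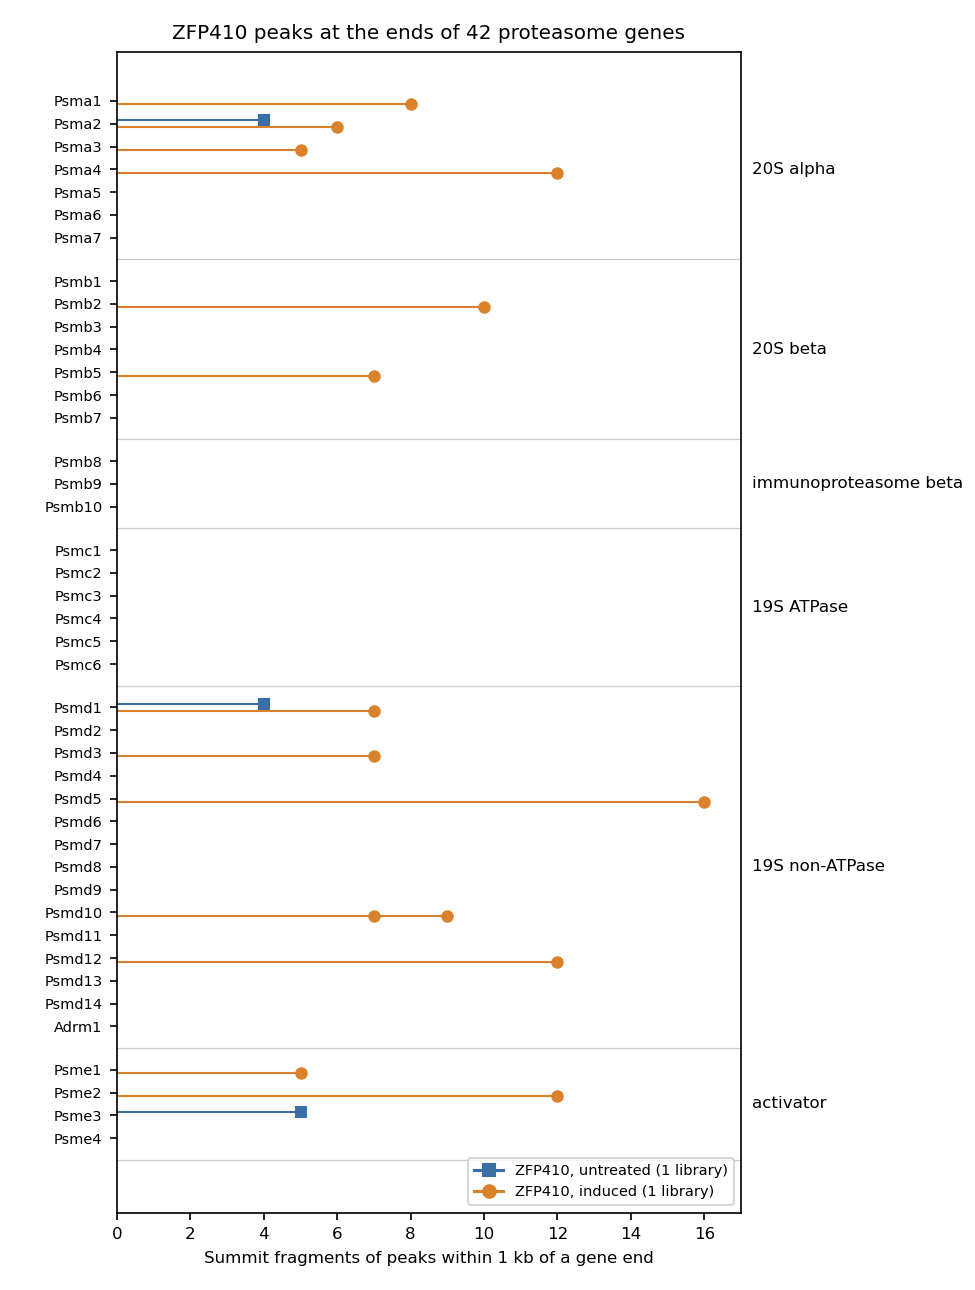
Summit fragments (horizontal axis) of every peak within 1 kb of an end of each of the 42 proteasome genes, grouped by role, with squares for the untreated and circles for the induced ZFP410 library, and no mark where no such peak was listed. Induced peaks reach from 5 fragments at Psma3 and Psme1 to 16 at Psmd5, and the 6 ATPase genes (Psmc1 to Psmc6) and 3 immunoproteasome genes have no mark.

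The promoters of the 5 genes with an induced summit inside the tabled window are printed because these summits lie in them. The peaks reach beyond the printed stretches and, except at Psmd1, cover only part of each. Each line gives the 250 bases before the annotated start, 5′ to 3′ on the strand of the gene, from RefSeq (GRCm38.p6). Capitals mark matches to the motifs searched, which are named after the sequences. The Psma4 stretch is chr9:54950609-54950858 (plus strand), Psmd12 chr11:107479278-107479527 (plus), Psma1 chr7:114276117-114276366 (minus), Psmd1 chr1:86064369-86064618 (plus) and Psmd10 chrX:140956712-140956961 (minus).
Psma4: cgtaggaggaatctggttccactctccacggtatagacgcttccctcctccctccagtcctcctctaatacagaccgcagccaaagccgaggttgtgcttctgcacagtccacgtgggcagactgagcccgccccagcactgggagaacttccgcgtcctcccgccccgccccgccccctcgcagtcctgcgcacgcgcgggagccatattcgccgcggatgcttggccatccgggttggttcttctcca
Psmd12: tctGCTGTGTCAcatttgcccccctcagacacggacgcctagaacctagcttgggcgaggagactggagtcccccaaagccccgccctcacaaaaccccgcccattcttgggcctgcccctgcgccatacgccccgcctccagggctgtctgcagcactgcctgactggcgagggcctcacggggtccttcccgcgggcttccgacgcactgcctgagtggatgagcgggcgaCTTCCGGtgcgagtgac
Psma1: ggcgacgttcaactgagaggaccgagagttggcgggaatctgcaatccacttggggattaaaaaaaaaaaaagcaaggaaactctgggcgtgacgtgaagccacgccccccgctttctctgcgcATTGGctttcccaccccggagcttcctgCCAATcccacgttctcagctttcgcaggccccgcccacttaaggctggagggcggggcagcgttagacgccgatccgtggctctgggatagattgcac
Psmd1: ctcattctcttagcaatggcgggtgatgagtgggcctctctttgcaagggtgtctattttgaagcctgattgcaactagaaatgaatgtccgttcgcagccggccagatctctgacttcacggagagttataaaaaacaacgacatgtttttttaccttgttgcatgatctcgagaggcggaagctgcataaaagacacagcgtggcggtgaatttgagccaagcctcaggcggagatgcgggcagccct
Psmd10: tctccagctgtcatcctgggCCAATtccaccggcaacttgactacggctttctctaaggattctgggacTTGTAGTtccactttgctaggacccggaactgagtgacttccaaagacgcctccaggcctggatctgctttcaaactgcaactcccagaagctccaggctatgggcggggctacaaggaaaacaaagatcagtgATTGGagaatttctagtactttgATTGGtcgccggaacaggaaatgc

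The summit lay 184 bp upstream of the start in Psma4, 93 bp upstream in Psmd12, 35 bp upstream in Psma1, 3 bp upstream in Psmd1 and 125 bp upstream in Psmd10. These summits held 12, 12, 8, 7 and 7 induced fragments in the same order. Capitals in Psma1 are a pair of CCAAT boxes in opposite orientation, beginning at positions -126 and -98 from the start. Those in Psmd12 are an element of the NFE2L1 type at -247 and an ETS core at -17, and those in Psmd10 are 3 CCAAT boxes, at -230, -47 and -24, and a ZNF143 core at -181. The Psma1 boxes, the Psmd12 element at -247 and the Psmd10 box at -230 lie outside the listed peaks. The ZNF143 core of Psmd10 lies across the edge of its peak. Psma4 and Psmd1 held no match in these bases. The Psmd1 stretch was the poorest in G and C of the 5, at 49.6%, and the Psmd12 stretch the richest, at 66.8%.

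Among the alpha ring genes of the 20S core, 4 of 7 had an induced gene-end peak and 1 of 7 an untreated one. Over all coding genes the shares were 8.43% and 3.73%. The subunit rings are short lists, and no difference between them was tested. Psma4 (chromosome 9, peak at 54950629 to 54951238) was the strongest, with 12 fragments in the induced library and no gene-end peak in the untreated or IgG library. Its peak also lay within 1 kb of an end of AY074887 and of Hykk, so it cannot be given to Psma4 alone. Psma1 held 8 induced fragments (chromosome 7, 114275874 to 114276188), and its nearest untreated summit was 203277 bp away. Psma2 (chromosome 13) was listed in both states, with 4 untreated fragments at 14613029 to 14613178 and 6 induced ones at 14613064 to 14613456. The Psma2 summits fell on either side of the start, 91 bp upstream in the untreated and 91 bp downstream in the induced library. Mrpl32, a mitochondrial ribosomal protein gene that starts 205 bp from Psma2 on the other strand, shared both Psma2 peaks.

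Psma3 was called by the outer limit of its gene model. Its induced peak of 5 fragments (chromosome 12, 70968832 to 70969074) lay 247 bp outside that limit but 5587 bp upstream of the annotated start. Psma5, Psma6 and Psma7 had no gene-end peak in any list. The nearest induced summits lay 82077, 28315 and 2269 bp away, and that of Psma7 lay beyond its far end, away from the promoter that it shares with Ss18l1, whose start is 19 bp from the Psma7 start.

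Beta ring genes of the 20S core had an induced gene-end peak in 2 of 7 cases and an untreated one in 0. The shares of all coding genes were 8.43% and 3.73%. Psmb2 held 10 induced fragments, 96 bp outside the gene (chromosome 4, 126677391 to 126677597). Psmb5, which encodes the subunit with chymotrypsin-like activity, held 7 induced fragments, 277 bp upstream of its start (chromosome 14, 54618104 to 54618295). The genes of the other catalytic subunits, Psmb6 and Psmb7, and the genes Psmb1, Psmb3 and Psmb4 had none. Their nearest induced summits lay between 3077 bp away, at Psmb3, and 310602 bp away, at Psmb1. Psmb1 was closer to an untreated summit, at 12545 bp.

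Immunoproteasome genes were not called: Psmb8, Psmb9 and Psmb10 had 0 gene-end peaks in each of the 3 lists. At the 8.43% of all coding genes called in the induced list, 0 of 3 genes is a common outcome. Psmb8 was the nearest miss, with an induced peak of 5 fragments 1089 bp from its far end (chromosome 17, 34202266 to 34202604), between Psmb8 and the peptide transporter gene Tap2. Psmb9 shares a divergent promoter with Tap1, the starts lying 226 bp apart, and its nearest induced summit was 15213 bp away.

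None of the 6 ATPase genes of the 19S base, Psmc1 to Psmc6, had a gene-end peak or a summit inside the gene in any of the 3 lists. Gene-end peaks were called for 8.43% of all coding genes in the induced and 3.73% in the untreated list. At these shares no call among 6 genes is a common outcome, so the lack of peaks does not set the ATPase genes apart. Psmc5 and Psmc3 came closest in the induced list, with summits 9413 and 10878 bp away, and Psmc2 was farthest, at 284953 bp. In the untreated list the closest was Psmc4 at 46274 bp. Psmc4 had summits at nearly that distance in all 3 lists, 46053 bp in the induced and 47748 bp in the IgG one.

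Of the 15 non-ATPase genes of the 19S cap, 5 had an induced gene-end peak and 1 an untreated one. They were split into base, lid and chaperone genes after the peaks were seen. Of the 4 other base subunits only Psmd1, a large scaffold subunit, was called, and it was called in both ZFP410 libraries. Its summits held 4 untreated fragments 119 bp downstream of the start (chromosome 1, 86064709 to 86064897) and 7 induced ones 3 bp upstream of it (86064350 to 86064837). Psmd2, the other scaffold, and the ubiquitin receptor genes Psmd4 and Adrm1 had no gene-end peak. The nearest untreated and induced summits were 24157 and 24141 bp from Psmd4, and 80957 and 80894 bp from Adrm1.

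Lid genes had induced gene-end peaks in 2 of 8 cases and untreated ones in 0, where 8.43% and 3.73% of all coding genes did. Psmd12 held 12 induced fragments (chromosome 11, 107479394 to 107479836), with no untreated summit within 121996 bp. Psmd3 held 7 induced fragments, 242 bp outside the gene (chromosome 11, 98682283 to 98682652), and its nearest untreated summit was 12790 bp away. Psmd14, which encodes the deubiquitinase of the lid, its inactive partner Psmd7, and Psmd6, Psmd8, Psmd11 and Psmd13 had none. Of these 6 genes Psmd13 had the nearest induced summit, at 25060 bp, and Psmd11 the farthest, at 299666 bp.

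The 19S assembly chaperones help build the ATPase ring and leave the finished particle. Their genes were called in 2 of 3 cases in the induced library and 0 of 3 in the untreated one. The shares of all coding genes were 8.43% and 3.73%. This set of 3 was split off after the peaks were seen, so its count is no group result. Psmd5 held 16 induced fragments, the most of any member (chromosome 2, 34869689 to 34870041), at an authors' fold of 13.6 and rank 405 of the induced list. Its summit lay inside the gene, 993 bp downstream of the start and only 4 bp within the 1 kb window, since it was 996 bp from the gene end. The nearest untreated summit was 26018 bp away. Psmd10, which encodes gankyrin, had a pair of induced gene-end peaks of 7 and 9 fragments (chromosome X, 140956393 to 140956887 and 140955700 to 140956034). An untreated peak of 4 fragments (140955688 to 140955934) overlapped the latter, and its summit missed the window by 6 bp, at 1006 bp from the gene end. Psmd10 therefore counts as induced alone only by the window. It also overlaps Atg4a, an autophagy gene, which has a start 196 bp from that of Psmd10 on the other strand. The summit of 7 fragments lies between these starts, so that peak cannot be given to Psmd10 alone. Psmd9 had no gene-end peak, and its nearest induced summit was 87232 bp away.

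The activator genes had induced gene-end peaks in 2 of 4 cases and an untreated one in 1 of 4, with no gene in both. The shares of all coding genes were 8.43% and 3.73%. Psme2 held 12 induced fragments, 268 bp upstream of its start (chromosome 14, 55591192 to 55591786), but over a local background of 2.03 fragments, 8.25 times the genome-wide one, so that the authors' fold was only 4.29. Its peak was shared with Rnf31, a ubiquitin ligase gene. Psme1, beside it on the chromosome, held 5 induced fragments 545 bp upstream of its start (55577941 to 55578081), in a peak shared with Fitm1, a gene of lipid droplet formation. Psme3, which encodes the nuclear activator PA28 gamma, was called in the untreated library alone. It held 5 untreated fragments 180 bp upstream of the start (chromosome 11, 101315885 to 101316181), and the nearest induced summit was 25388 bp away. Equal enrichment would have given it 11.2 induced fragments, where the weakest called peak held 4. That number scales only 5 fragments, from a peak picked because it was listed, and its counting error was not computed. A loss on induction is therefore not shown. Psme4 had no summit within 357399 bp in the untreated or 528082 bp in the induced list.

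The expected numbers behind the other one-sided calls were lower. Scaled by genome background, the 11 members called in the induced list alone would have held 2.23 to 7.14 fragments in the untreated library, where the weakest called peak held 3. For Psma3 and Psme1 the expected 2.23 fragments fall under that number, so the lack of an untreated peak could not be read at this depth. For Psma1, Psmb5 and Psmd3 the expected numbers were 3.57, 3.12 and 3.12, barely above it. The other 6 expected numbers stood further above 3: 4.02 at Psmd10, 4.46 at Psmb2, 5.36 at Psma4, Psmd12 and Psme2, and 7.14 at Psmd5. At Psme2 the raised local background calls for more fragments than 3, and Psmd10 did have an overlapping untreated peak. All these expected numbers scale single counts of peaks picked because they were listed after induction, which biases them upward. Their counting error was not computed, so a missing untreated peak does not show a gain on induction.

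Where peaks overlapped in both libraries, a difference in enrichment could not be told from counting error. The ratio of induced to untreated enrichment was 0.670 at Psma2 (95% exact binomial interval 0.159 to 3.23), 0.781 at Psmd1 (0.199 to 3.64) and 1.00 at Psmd10 (0.280 to 4.46). Each interval contains 1, covers counting error only and is wide, so a several-fold change in either direction could not be seen. Over the 526 coding genes with a gene-end peak in both lists the median ratio was 0.803, with quartiles of 0.625 and 1.16. At Chd4, whose strongest gene-end peaks held 10 untreated and 52 induced fragments, the ratio was 2.32 (1.17 to 5.12).

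Member peaks held about as many fragments as other gene-end peaks. The strongest gene-end peak of each called member held a median of 8 induced fragments (5 to 16), where all 1846 called coding genes had a median of 7 (4 to 104). In the untreated list the 3 members held 4, 4 and 5 fragments, against a median of 5 over 816 genes. An authors' −log10 q of at least 5 was reached by 9 of the 13 induced members (69.2%) and by 52.2% of all called genes, and by 0 of the 3 untreated members and 26.7% of all. None of the members' peaks overlapped an IgG peak, but neither did the strongest gene-end peak of any of the 1846 induced or 816 untreated coding genes. The nearest IgG summit to a member was 47748 bp away, at Psmc4, and the median distance was 3410 kb.

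Most member peaks lay near a gene start and few within a gene. A summit fell inside 3 of 42 members in the induced library (7.14%, against 11.9% of coding genes) and inside 2 in the untreated one (4.76%, against 6.27%). The members are short, with a median length of 10.8 kb where all coding genes have 17.2 kb, and the part of length in these shares was not tested. Annotated starts were given for 36 members. Of these, 10 had an induced summit within 1 kb of a start (27.8%, against 8.89% of the 17492 coding genes with one) and 3 an untreated summit (8.33%, against 3.94%). In the induced list 8 of the 10 were upstream, with a median position of -109 bp, where 61.3% of all such genes were upstream, with a median of -59 bp. Within 300 bp of the start lay 8 of the 10 members and 78.5% of all genes.

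**Figure D2:**
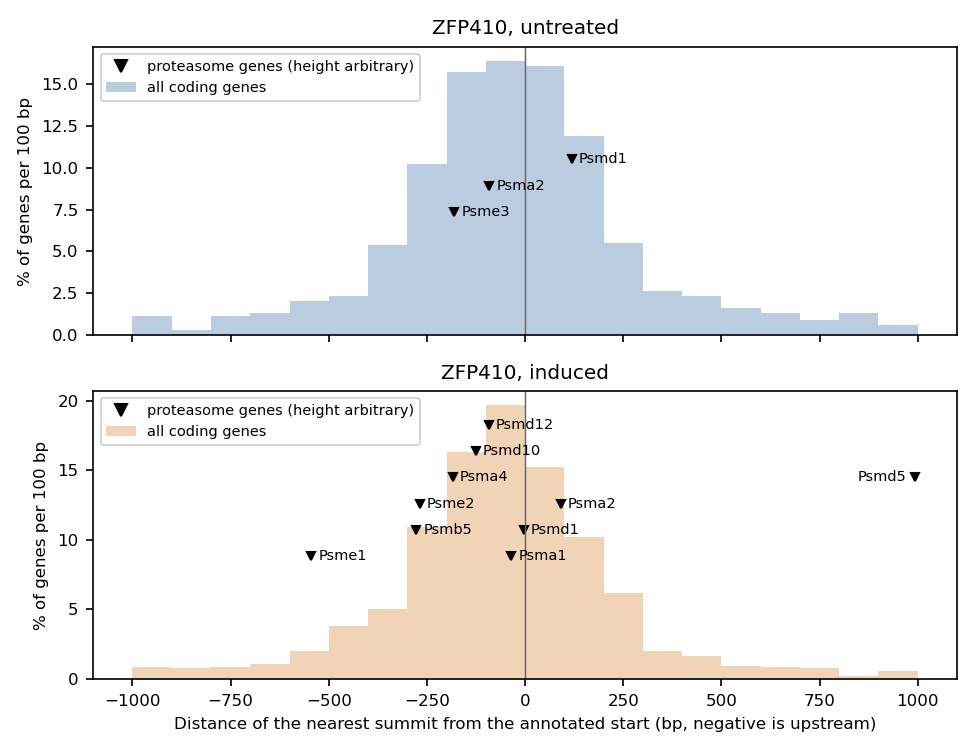
Distance in bp from the annotated start to the nearest ZFP410 summit within 1 kb (horizontal axis, negative is upstream), with bars for the percentage of all such coding genes in each 100 bp and triangles, at arbitrary height, for proteasome genes, in the untreated (top) and induced (bottom) library. Most members sit within 300 bp of the start like other genes, and Psmd5 stands apart at 993 bp downstream.

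Members with and without a shared promoter were both called. A divergent gene started within 1 kb of 7 of the 36 members with a known start, and 3 of these 7 had an induced gene-end peak (Psma2, Psmd10, Psme2), against 8 of the 29 without such a neighbour. The 4 without a peak were Psma7, Psmb9, Psmc5 and Psmd13, which starts 85 bp from Sirt3. Of the 13 induced members, 4 shared their peak with an end of another coding gene (30.8%), as did 37.4% of all called genes. Psmd10 is not among the 4, since the Atg4a start beside its peak is not a limit of the Atg4a gene.

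The 28 members that neither ZFP410 list called at an end had a median of 81.5 kb to the nearest induced summit, from 1.09 kb at Psmb8 to 528 kb at Psme4. In the untreated list the median was 105 kb, from 12.5 kb at Psmb1 to 2261 kb at Psmb7. Over all members the medians were 25.2 kb induced and 78.3 kb untreated, where all coding genes had 84.8 and 194 kb. By nearest coding gene, 14 of 7475 induced, 4 of 3256 untreated and 0 of 480 IgG peaks belonged to a member. Members make up 42 of the 21887 coding genes, a share close to that of the induced peaks. That share counts every gene equally, whatever its length or surroundings, so it is not a matched background for nearest-gene counts. A gene-end peak can also go to another gene, as the induced peak at Psma4 did. This measure therefore does not show whether member peaks were in excess.

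Of 42 other genes of the pathway, 7 had an induced gene-end peak (16.7%, against 8.43% of coding genes) and 4 an untreated one (9.52%, against 3.73%). A further listed gene, Paaf1, was not matched in the gene table and was not used here. Whether this differs from the share of the subunits was not tested. Nfya, which encodes a subunit of the factor that binds CCAAT boxes, held 5 untreated and 16 induced fragments, and Zfand5, a proteasome-binding protein gene, held 6 and 13. Ubqln4, a shuttle for tagged proteins, held 4 in each. The untreated and induced summits lay 1 and 155 bp from a gene end at Nfya, 480 and 140 bp at Zfand5 and 778 and 55 bp at Ubqln4. Whether they mark the same site was not checked. In the induced list alone stood Foxo3 with 7 fragments, the ubiquitin gene Rps27a with 8, the E1 enzyme gene Uba6 with 9 and Usp14, a deubiquitinase of the proteasome, with 6. Psmg1, an assembly chaperone gene of the 20S core, was called in the untreated list alone with 5 fragments. Nfe2l1 and Ddi2, the factor and the protease that activate proteasome genes, had no gene-end peak, nor did the chaperone genes Pomp, Psmg2, Psmg3 and Psmg4. The list of rare and accessory subunits added none beside Psmd10.

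Other large complexes gave shares from 0 to above that of the proteasome genes. In the induced library the COP9 signalosome, whose subunits are related to the 19S lid, had 3 of 9 genes called (Cops4 with 18 fragments, Cops5 with 4, Cops7b with 6). The CCT chaperonin had 3 of 8 (Cct5 with 10, Cct3 with 7, Tcp1 with 4). Cytosolic ribosomal protein genes had 16 of 84, with Rps27a, the ubiquitin gene named above, among them. The translation factor eIF3, also related to the lid, had 0 of 14. In the untreated library the counts were 0, 1 (Cct7, with 7 fragments), 3 and 0. The background of all coding genes (8.43% induced, 3.73% untreated) was not matched for expression, and the part of expression in these shares was not tested.

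**Figure D3:**
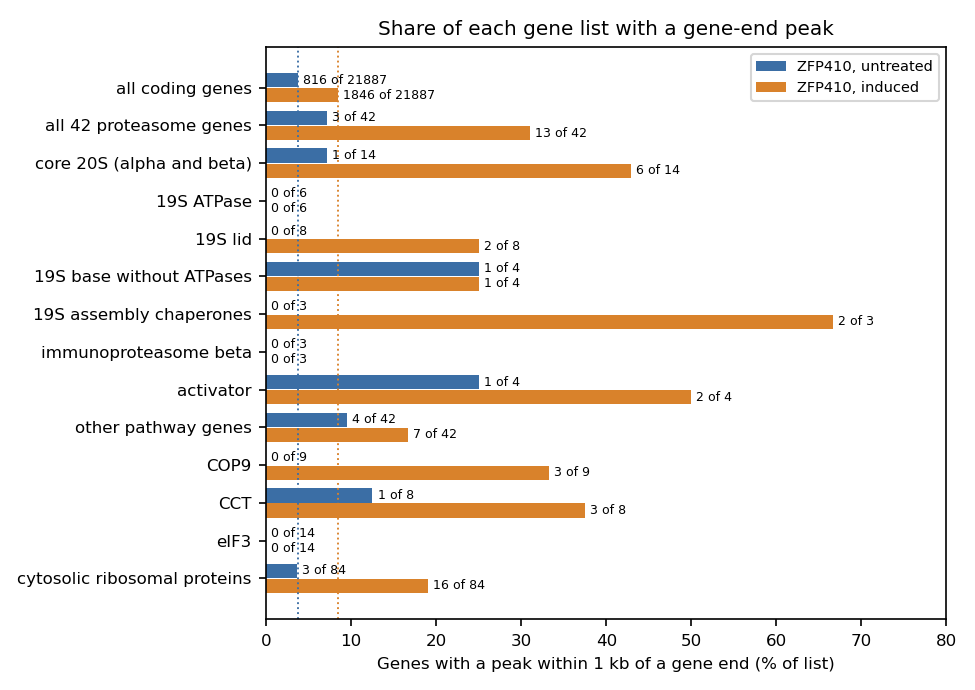
Percentage of genes in each list with a ZFP410 peak within 1 kb of a gene end (horizontal axis), in the untreated and induced libraries, with the counts at the bars and dotted lines at the shares of all coding genes. In the induced library the 42 proteasome genes stand at 31.0% against 8.43%, near COP9 and CCT. The ATPase, immunoproteasome and eIF3 genes, short lists of 6, 3 and 14, stand at 0.

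Promoter windows of 300 bases (250 before to 50 after the start) were available for 36 members, 39 windows in all, and were searched on both strands. The ZNF410 core CATCCCATA was in 0 of the 39, in 0.141% of all 21263 coding-gene windows and in 0 of the 870 windows that held an induced summit. Its shorter form CCCATAA, which can overlap the core, was in 0 of 39 and in 2.41% of both other sets. The NFE2L1 element TGACNNNGC was in 7 of 39 (17.9%), at Adrm1, Psmb5, Psmb6, Psmc6, Psmd9, Psmd12 and Psme4, against 13.0% of all windows. CCAAT was in 14 of 39 (35.9%, against 38.2%). The ETS core CCGGAAG was the motif with the widest gap, in 14 of 39 member windows (35.9%) against 11.6% of all windows and 22.5% of those with an induced summit. Among member windows it was in 1 of the 12 from genes with an induced gene-end peak, that of Psmd12, and in 13 of the 27 from genes without one. ACTACAA (ZNF143) and GCATGCGC (nuclear respiratory factor) were in 2 of 39 each, GAANNTTC (heat shock) in 2 and TGACGTCA (cAMP response) in 0, against 3.60%, 3.52%, 7.21% and 2.23% of all windows. Median GC content was 59.0% in member windows, 56.3% in all windows and 63.0% in windows with an induced summit. Member windows with and without an induced gene-end peak had medians of 58.2% and 59.0%. A match describes the letters of the window and is not a measured site.

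**Figure D4:**
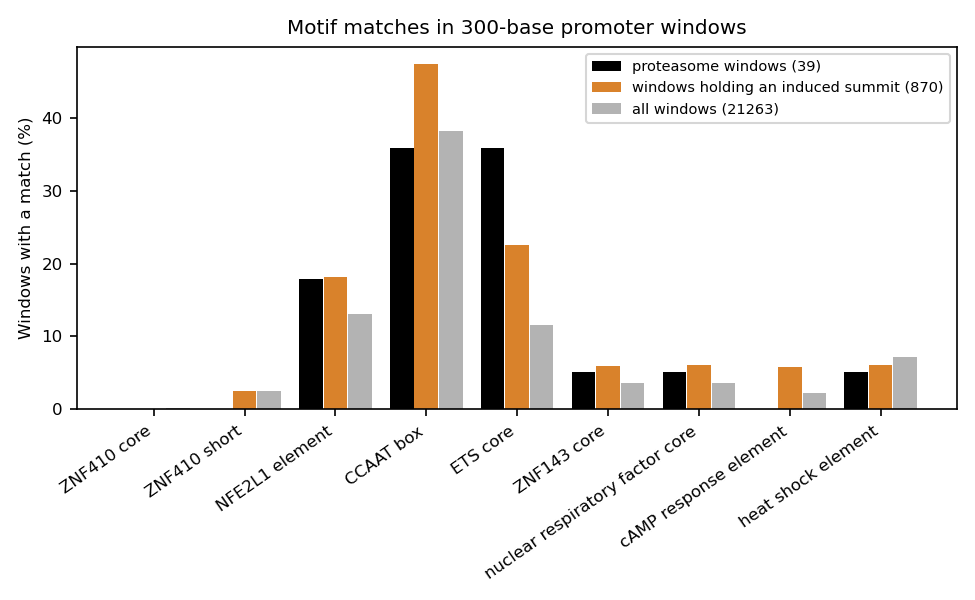
Percentage of 300-base promoter windows with a match (vertical axis) to each motif, for 39 windows of proteasome genes, 870 coding-gene windows that held an induced ZFP410 summit and all 21263 coding-gene windows. The ETS core stands at 35.9%, 22.5% and 11.6%, and no proteasome window holds either form of the ZNF410 motif.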

How the data were processed

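Each library has 1 deposited peak list. Per the submitters' processing notes, the build was mm10 and the tools were MACS2 2.1.1, Bowtie2 2.2.6 and Picard. The deposited peak names carry a q threshold of 0.1. For each peak the authors give a score, a fold ratio over the local background, and −log10 values of p and q (the p-value and q-value). Duplicate handling and the caller's control: not given in the sources used here. Total reads were not used here.

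Python 3.11.15 with numpy 2.4.6, pandas 2.3.3, scipy 1.17.1 and matplotlib 3.10.9 were used. Summit fragments n and local background b were solved from the authors' fold, (n + 1)/(b + 1), and −log10 p, a Poisson tail, within 0.001. A whole n was found for 7474 of 7475 induced, 3255 of 3256 untreated and 480 of 480 IgG peaks. The step was tested on data simulated from the same formulas, which checks its arithmetic but not whether the authors' values follow them. Enrichment is n over the lowest background of the library. Relative depth comes from the steps between local backgrounds, 0.406 in the induced and 0.202 in the untreated list. Gene limits and starts come from RefSeq (GRCm38.p6), and a start was given for 36 of 42 members. Gene-end peaks have a summit within 1 kb of either limit. All members are named, with genes of 30-gene or smaller lists that have a gene-end peak, and promoters with an induced summit inside were printed. That rule asked for summits at the start, which was read as inside the window. Members and lists were chosen with earlier results of these data known, and the finer split of 19S subunits was made after the peaks were seen.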

Additional observations from a re-analysis of the deposited data

How the results depend on the processing

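No paired analysis was possible because each group holds 1 library. The induced count of 13 members stayed within 1.5 times under each alternative: 11 with a window of 500 bp (7.16% of coding genes), 14 with 2 kb (9.81%), 9 at a −log10 q of at least 5 (4.42%), 10 at a fold of at least 5 (5.87%), 14 by peak edge (8.69%), 10 by annotated start and 13 without peaks overlapping IgG. The IgG setting could not change the count, since no member peak overlapped an IgG peak. Psmd5 and Psme1 leave at 500 bp, and Psmb8 enters at 2 kb. The untreated count of 3 fell to 0 at the q setting (1.00% of coding genes) and 1 at the fold setting (1.94%), Psme3. Elsewhere it was 3 or 4. IgG gave 0 throughout. Scaled by relative depth, the ratios were 0.746 at Psma2, 0.871 at Psmd1 and 1.12 at Psmd10, all inside their intervals. Member gene-end peaks held 4 to 16 fragments, each from a single library, which limits the comparisons of members.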
